A study of Mus musculus with 2 samples.

Results

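The genes described here are the 9 measured members of the MHC class II presentation pathway, H2-Aa, H2-Ab1, H2-Eb1, Cd74, H2-DMa, H2-DMb1, H2-DMb2, H2-Oa and Ciita. They were taken by symbol from the 32285 genes counted in single cells of the mouse mitral valve, and all 9 were found. The WT library came from Fbn1+/+ littermate controls and the mgR library from Fbn1 mgR/mgR mice. The latter carry an insertion in both copies of the gene for fibrillin-1 and make less of this microfibril protein. Both groups were studied at 12 weeks of age on the C57BL/6J background and received no agent, and leaflets were digested with collagenase A and elastase before viable cells were sorted and captured by the 10x 3′ v3 chemistry. There was 1 library per genotype, so no test was possible. Every interval given is a 95% interval that covers counting error only and says nothing about variation between mice. It is exact except for differences of shares (Newcombe's score method). Intervals of levels and ratios count each UMI as independent, so they do not cover the spread between cells either.

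MHC class II molecules carry peptides from swallowed proteins to the surface of antigen presenting cells, where CD4+ T cells read them. H2-Aa and H2-Ab1 encode the chains of the I-A molecule and H2-Eb1 encodes the beta chain of I-E, whose alpha chain is not made in C57BL/6 mice. Cd74 encodes the invariant chain, which fills the groove and steers the molecule to the endosome, H2-DMa with H2-DMb1 or H2-DMb2 encodes the DM molecule that exchanges its remnant for peptide, H2-Oa encodes a chain of DO, an inhibitor of DM, and Ciita encodes the co-activator that switches the family on. Macrophages and dendritic cells of the heart and its valves, together with B cells, are the known professional bearers of these molecules.

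The study's methods name male mice for its comparisons, but both libraries held cells with Xist UMIs and cells with UMIs of the Y-linked genes Ddx3y, Eif2s3y, Kdm5d or Uty. Of the cells kept, 28.1% in WT and 60.8% in mgR had Xist UMIs and no Y-linked UMI (Xist-only), whereas 38.5% and 21.1% had the reverse (Y-only). The main mgR to WT ratios of the members in macrophages, their subsets and dendritic cells are given within these groups too, and the gene lists and smaller classes are not. The kept cells numbered 875 in WT and 3438 in mgR, with medians of 5033 and 7370 UMIs, and no cell barcode was shared among them. Fbn1 in cells gated as fibroblasts was 171.1 UMIs per 1000000 UMIs of these cells (CPM) in WT and 137.2 in mgR, a ratio of 0.802 (0.701 to 0.920). The mgR allele is known to lower Fbn1 mRNA severely, and a difference of this small size checks the labels only weakly.

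On mouse build GRCm38, 7 of the 9 genes lie together on chromosome 17, and Ciita and Cd74 lie on other chromosomes. In the GENCODE annotation the order along the cluster is H2-Oa (chr17:34092340-34095234, plus strand), H2-DMa (chr17:34119541-34139101, plus), H2-DMb2 (chr17:34143307-34151555, plus), H2-DMb1 (chr17:34153072-34160230, plus), H2-Ab1 (chr17:34257689-34269419, plus), H2-Aa (chr17:34282744-34287823, minus) and H2-Eb1 (chr17:34305867-34316674, plus). Ciita spans chr16:10480059-10528418 on the plus strand. All 9 are annotated as protein coding. On the opposite strand H2-DMa overlaps Brd2, CR974462.4 and Gm20493, H2-Oa overlaps BC051537, Ciita overlaps Dexi and H2-Eb1 overlaps Gm20513. The sources used here do not state whether counting used strand. On the same strand H2-DMa overlaps CR974462.3 and Cd74 overlaps Mir5107. H2-DMb1 and H2-DMb2 are close copies. Of the 31-base words in the last 500 bases of the annotated H2-DMb1 transcripts, 35.0% also occur in an H2-DMb2 transcript. Of those of H2-DMb2, 0.840% occur in H2-DMb1. By this measure alone the UMIs of H2-DMb1 are less certain than those of the other members. The words pool the ends of every annotated transcript, 1069 for H2-DMb1 and 476 for H2-DMb2. Which of these ends the counted UMIs came from was not tested.

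Class II promoters are known for an X box, bound by the RFX complex, followed at a short distance by a Y box, bound by NF-Y, and CIITA acts through the proteins assembled there. RefSeq promoter windows on GRCm38.p6, from 250 bases before to 50 after the start, were at hand for 6 of the 9 genes, not for H2-Ab1, Cd74 and Ciita. Stretches of these windows around the boxes are shown because H2-Aa and H2-Eb1 moved closely together from cell to cell in macrophages while H2-DMb2 was almost absent there, as described further on. Capitals mark the Y box letters TGATTGG and the X box letters AAC, any base, GATGATG, which were chosen after the sequences had been seen and searched on both strands.
H2-Eb1, chr17:34305746-34305822, plus strand: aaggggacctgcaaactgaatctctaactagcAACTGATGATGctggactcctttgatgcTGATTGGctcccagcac
H2-DMb2, chr17:34145097-34145173, plus strand: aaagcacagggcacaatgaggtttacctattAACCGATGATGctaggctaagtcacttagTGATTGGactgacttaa
H2-Aa, chr17:34287857-34287933, minus strand: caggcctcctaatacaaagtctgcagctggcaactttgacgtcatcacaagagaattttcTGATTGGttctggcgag
The Y box letters were present in 5 of the 6 genes (H2-Aa, H2-Eb1, H2-DMb1, H2-DMb2 and H2-Oa) and in 7.82% of all 32851 promoter windows. The X box letters were present in H2-Eb1, H2-DMb1 and H2-DMb2 and in 0.0609% of all windows, and 7 windows in all held both motifs. The gap between the boxes was 17 bases in H2-Eb1 and 18 bases in H2-DMb1 and H2-DMb2. The X box letters were not found in H2-Aa and H2-Oa, and neither motif was found in the 2 windows of H2-DMa. This says only that these letters are absent there, not that these promoters lack the boxes.

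Cells were sorted into classes by a few genes. Macrophages had at least 10 UMIs of the complement genes C1qa, C1qb and C1qc, dendritic cells had at least 2 UMIs of Cd209a (type 2) or of Xcr1 and Clec9a (type 1), and B cells had at least 2 UMIs of the antigen receptor genes Cd79a and Cd79b. Macrophages were further divided by Lyve1 and Folr2, known from resident macrophages around vessels, against Cx3cr1 and Cd72, by whichever pair had at least 2 UMIs and more than the other. WT held 225 macrophages, 39 dendritic cells and 5 B cells, and mgR held 1551, 125 and 35. Markers that the gates did not use were checked. All 6 such macrophage markers, Csf1r and Adgre1 among them, were detected in the macrophages of both libraries (summed level 3297 CPM in WT and 3790 in mgR), all 5 dendritic cell markers, Flt3 and Zbtb46 among them, in the dendritic cells (344.9 and 375.3) and all 5 B cell markers, Pax5 among them, in the B cells (5079 and 4139). In the macrophages the summed dendritic cell markers were at 69.5 and 48.8 and the summed B cell markers at 100.4 and 96.4, with Pax5 at 0 in both. In the dendritic cells the 9 macrophage markers summed to 387.0 and 357.5, beside 1026 and 1029 for all 8 dendritic cell markers. T cell markers there summed to 61.7 and 0. In the B cells T cell markers summed to 94.1 and 390.5, and monocyte markers to 564.3 and 1495. The part of these markers in the class II values was not tested. Levels are given throughout in CPM of the class. UMIs count 3′ ends and are not scaled by length, so levels are compared between cells for the same gene.

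Most class II transcripts came from macrophages. Of all UMIs of the 9 genes, 57.8% in WT and 59.1% in mgR lay in macrophages, 31.3% and 25.9% in dendritic cells, 0.304% and 1.11% in B cells and 6.98% and 9.53% in cells of none of these classes. The members did not all share this pattern. Macrophages gave 39 of 52 Ciita UMIs in WT and 66.3% of 300 in mgR, but dendritic cells gave 78.8% and 52.6% of those of H2-DMb2 and 73.5% and 59.8% of those of H2-Oa. In mgR, where B cells were more numerous, they gave 14.5% of the H2-DMb2 UMIs.

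**Figure D1:**
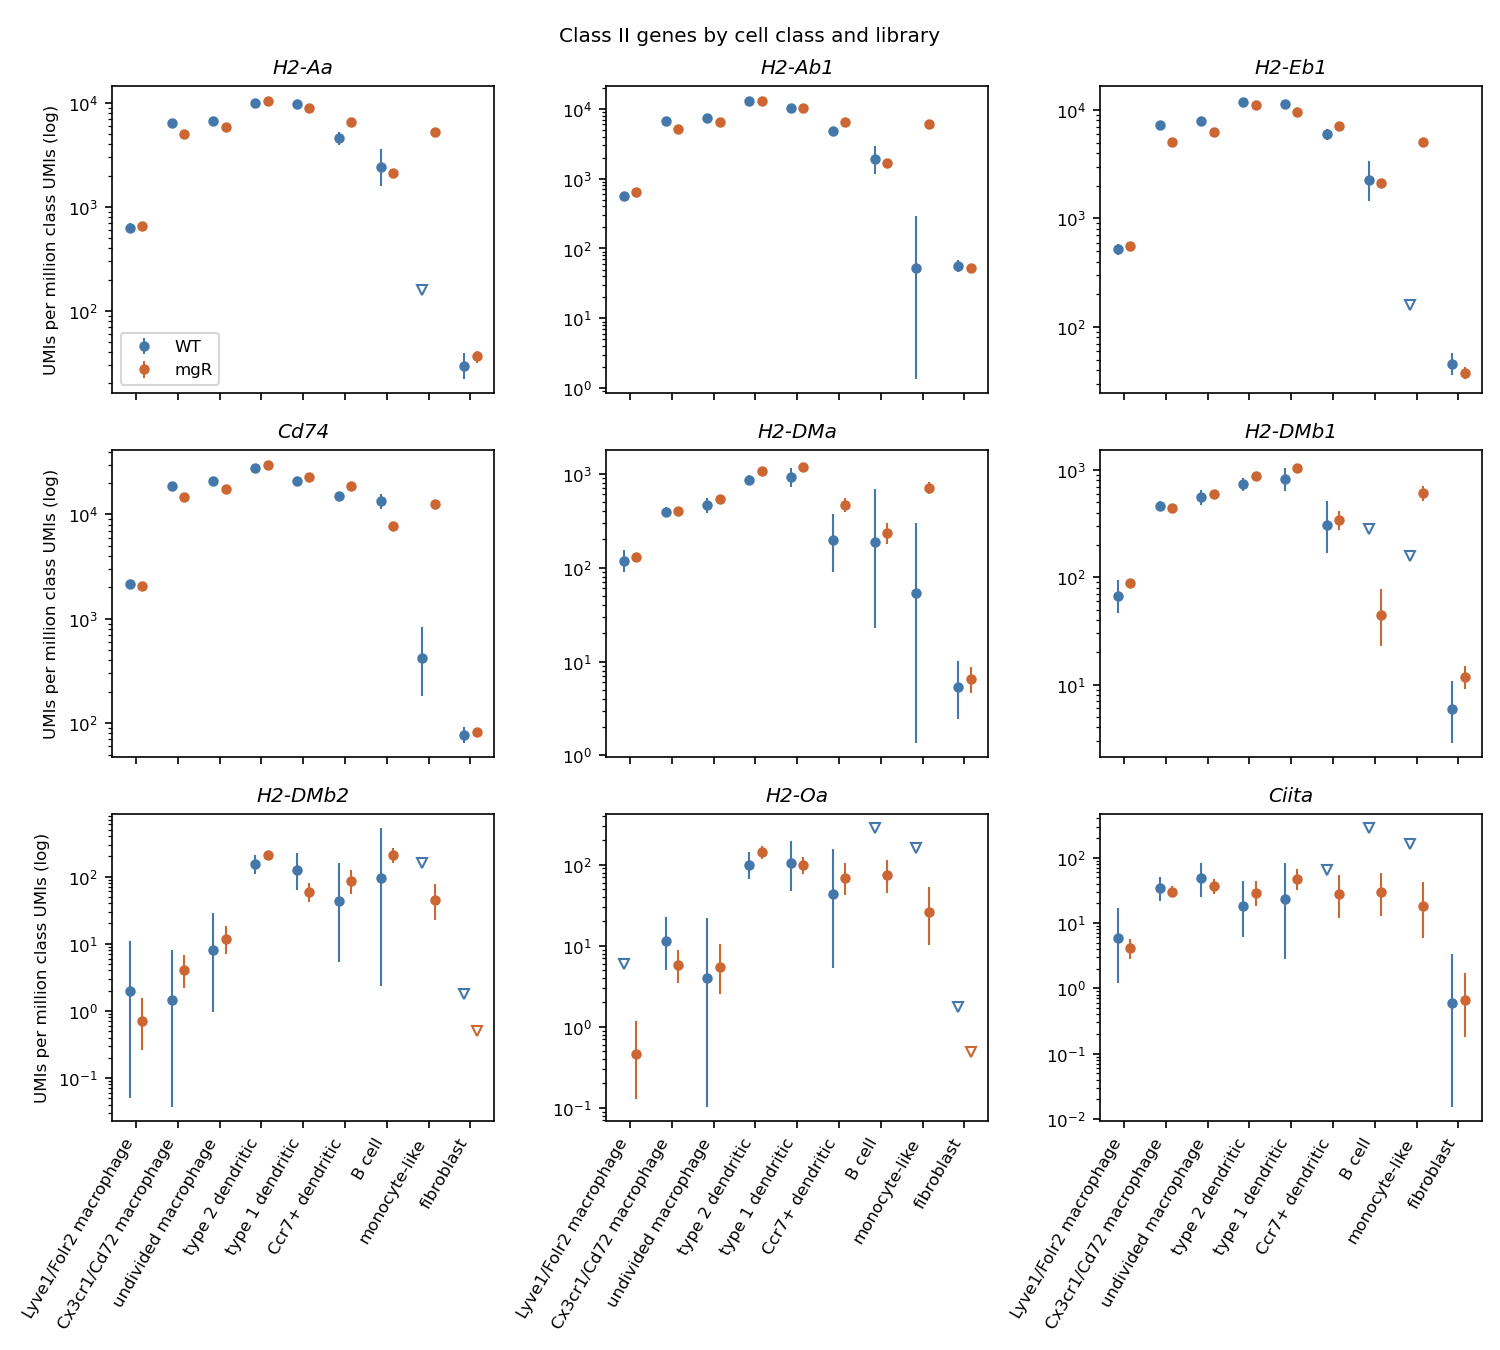
Level of each class II gene (CPM, log axis) in 9 cell classes of the WT (blue) and mgR (orange) libraries, with exact 95% Poisson intervals. Open triangles stand for classes without a UMI and are drawn at the limit of 3 counts. Cd74 was highest in type 2 dendritic cells (28085 in WT and 29953 in mgR), and H2-DMb2 and H2-Oa were at most 11.7 in the macrophage subsets and at least 58.7 in type 1 and type 2 dendritic cells.

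Dendritic cells had the highest class II levels in both libraries. The 9 genes summed to 62338 CPM in WT and 61095 in mgR, against 28209 and 14852 in macrophages, 20316 and 14228 in B cells, and 220.3 and 227.7 in fibroblasts. The ratio of dendritic cells to macrophages was 2.21 (2.17 to 2.25) in WT and 4.11 (4.08 to 4.15) in mgR. All 7 members with at least 50 UMIs in WT and all 9 in mgR were at least 1.5-fold higher in dendritic cells than in macrophages, beside 19.4% and 14.0% of all genes tested, and 34.8% and 40.0% of all genes were lower by as much. Against the Cx3cr1/Cd72 macrophages alone the ratio was smaller, 1.55 (1.52 to 1.58) and 1.99 (1.97 to 2.01).

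The chains of the presenting molecules were the most abundant after Cd74. H2-Aa stood at 10022 CPM in WT and 9848 in mgR in dendritic cells, 4483 and 2401 in macrophages, and 2445 and 2112 in B cells. H2-Ab1 stood at 12285 and 11708 in dendritic cells, 4686 and 2475 in macrophages, and 1881 and 1670 in B cells. H2-Eb1 stood at 11778 and 10394, 5042 and 2380, and 2257 and 2116 in the same order. For each of the 3 chains dendritic cells were highest in both libraries, and the WT interval of the B cells, which rests on 20 to 26 UMIs, was wide.

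Cd74, the invariant chain, took 47.2% of the class II UMIs of macrophages in WT and 47.7% in mgR, and 42.3% and 43.8% of those of dendritic cells. In B cells its share was larger, 66.2% of 216 UMIs in WT and 54.4% of 3826 UMIs in mgR. Its level in B cells was 13450 CPM in WT and 7739 in mgR, beside 13315 and 7088 in macrophages, with B cell to macrophage ratios of 1.01 (0.851 to 1.19) and 1.09 (1.04 to 1.14). In the same cells H2-Ab1 was lower than in macrophages, at ratios of 0.401 (0.245 to 0.620) and 0.675 (0.613 to 0.740).

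The DM genes differed among themselves. H2-DMa was 869.3 CPM in WT and 1120 in mgR in dendritic cells and 306.0 and 247.4 in macrophages, with 188.1 and 234.3 in B cells. H2-DMb1 was 757.1 and 959.3 in dendritic cells and 341.1 and 240.3 in macrophages. In B cells H2-DMb1 had no UMI in WT (which allows up to 3 of 10632) and 12 UMIs, or 44.6 CPM, in mgR. The other beta chain gene had another order. H2-DMb2 was 145.8 and 139.3 CPM in dendritic cells, 2.75 and 2.86 in macrophages, and 208.3 in the mgR B cells (56 UMIs). In mgR the B cell to macrophage ratio was thus 72.9 (47.6 to 112.8) for H2-DMb2 and 0.186 (0.0958 to 0.325) for H2-DMb1. The WT library held 5 B cells and 1 H2-DMb2 UMI in them, too few to compare, and the WT B cells were shallow, with a median of 2140 UMIs beside 8137 in mgR.

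H2-Oa, a chain of the DM inhibitor DO, was likewise far higher in dendritic cells than in macrophages. It was 101.0 CPM in WT and 123.5 in mgR in dendritic cells and 6.19 and 2.42 in macrophages (9 and 33 UMIs), with dendritic cell to macrophage ratios of 16.3 (7.71 to 38.5) and 51.1 (35.1 to 76.5). In B cells it had no UMI in WT and was 74.4 CPM in mgR. Ciita was sparse everywhere, at 19.6 CPM in WT and 37.1 in mgR in dendritic cells (7 and 54 UMIs) and 26.8 and 14.6 in macrophages (39 and 199 UMIs). Its order between these classes was not the same in the libraries, with ratios of 0.732 (0.276 to 1.65) in WT and 2.54 (1.85 to 3.45) in mgR, and the WT interval spans 1.

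Type 1 and type 2 dendritic cells differed less from each other. The summed level of type 1 over type 2 cells was 0.836 (0.810 to 0.864) in WT, from 8 and 31 cells, and 0.816 (0.805 to 0.827) in mgR, from 52 and 73 cells. Cd74 was lower in type 1 cells (0.747 and 0.767), while H2-DMb1 was higher in mgR (1.20, 1.08 to 1.33) and not distinguishable in WT (1.11, 0.837 to 1.47). H2-DMb2 was 0.284 (0.195 to 0.405) in mgR and 0.837 (0.388 to 1.66) in WT.

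Of the remaining cells, those with at least 2 UMIs of Ccr7, the receptor of migrating mature dendritic cells, came closest to the dendritic cells. These numbered 6 in WT and 30 in mgR, and the 3 mature dendritic cell markers other than Ccr7 were detected in both. Their summed level was 30914 and 39860 CPM, or 0.496 (0.470 to 0.523) and 0.652 (0.640 to 0.665) of that of the other dendritic cells. Among the members H2-DMa was at 0.226 (0.102 to 0.435) and 0.413 (0.343 to 0.492). Ciita had 8 UMIs in mgR and none in WT. The dendritic cells used for comparison also held Ccr7, at 653.4 CPM in WT and 339.0 in mgR. The contrast is therefore not one of cells with against cells without Ccr7.

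Cells gated by Ly6c2, Plac8 and Chil3 as monocyte-like differed widely between the libraries. In WT 6 such cells held 10 class II UMIs (532.1 CPM), and in mgR 37 cells held 8239 (30340 CPM), with a median of 147 UMIs per cell. At equal depth none of the 6 WT cells and 25 of 37 mgR cells (67.6%, 50.2 to 82.0) had at least 10 class II UMIs of 2000. The WT cells had 2 of 5 monocyte markers, with Ly6c2, Chil3 and Vcan at 0, whereas mgR had all 5, so the label rests on too few markers in WT. The 8 dendritic cell markers were all at 0 in WT and summed to 176.8 CPM in mgR, where 6 of 8 were detected and Cd209a and Zbtb46 were at 0. Their part in the gap was not tested.

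Fibroblasts, the most numerous other cells, had 372 class II UMIs in 322 WT cells and 1379 in 868 mgR cells. The 3 highest cells held 40.6% and 48.2% of them, and 1 mgR cell held 494. In these cells H2-Ab1 took 25.5% and 23.3% and Cd74 34.9% and 35.9% of the class II UMIs, unlike the 16.6% and 16.7% and the 47.2% and 47.7% of macrophages. Macrophage markers summed to 250.5 and 257.4 CPM in the fibroblasts. At equal depth 1.71% and 0.478% of fibroblasts had at least 10 class II UMIs, and the part of free RNA in these values was not tested. Among T cells of mgR 1 cell held 1019 of 1061 UMIs.

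Class II separated the macrophage subsets in both libraries. In WT the 9 genes summed to 40201 CPM in the 97 Cx3cr1/Cd72 macrophages and 4053 in the 77 Lyve1/Folr2 macrophages, a ratio of 9.92 (9.48 to 10.4). In mgR they summed to 30709 in 381 and 4138 in 945 cells, a ratio of 7.42 (7.33 to 7.51). The 51 and 225 macrophages that neither pair placed stood at 43908 and 37317 CPM, above both subsets.

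Within this contrast the presenting chains differed most and H2-DMa least of the 6 members with at least 50 UMIs in WT. The ratio of Cx3cr1/Cd72 to Lyve1/Folr2 macrophages was 14.1 (12.4 to 16.0) in WT and 9.14 (8.85 to 9.44) in mgR for H2-Eb1. It was 12.1 and 7.87 for H2-Ab1, 10.3 and 7.69 for H2-Aa, and 8.73 and 7.11 for Cd74. H2-DMb1 was at 6.93 (4.86 to 10.2) and 5.004 (4.58 to 5.46), and H2-DMa with 3.28 (2.47 to 4.42) and 3.06 (2.83 to 3.32). Ciita was higher too, by 5.84 (1.77 to 30.3) on 24 and 3 UMIs in WT and by 7.38 (4.99 to 11.2) on 105 and 35 UMIs in mgR. H2-Oa had 8 UMIs against 0 in WT and a ratio of 12.3 (4.12 to 49.5) in mgR. All 6 members tested in WT and all 7 in mgR were at least 1.5-fold higher in the Cx3cr1/Cd72 macrophages, beside 15.2% and 12.4% of all genes, and 22.0% and 18.6% of all genes were lower by as much. H2-DMa accordingly took a larger part of the class II UMIs in Lyve1/Folr2 macrophages (2.91% and 3.15%) than in Cx3cr1/Cd72 macrophages (0.965% and 1.30%).

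The question of the study design was what differs in the valve when fibrillin-1 is scarce. Over all macrophages class II genes were lower in mgR. The summed level was 28209 CPM in WT and 14852 in mgR, a ratio of 0.527 (0.521 to 0.532). H2-Eb1 had the lowest ratio of the well counted genes, 0.472 (0.460 to 0.484), followed by H2-Ab1 at 0.528 (0.515 to 0.542), Cd74 at 0.532 (0.524 to 0.541) and H2-Aa at 0.536 (0.522 to 0.550). Ciita, on 39 and 199 UMIs, was at 0.543 (0.384 to 0.787). The DM genes were lower by less, H2-DMb1 at 0.705 (0.641 to 0.776) and H2-DMa at 0.808 (0.732 to 0.894). H2-DMb2 with 4 and 39 UMIs and H2-Oa with 9 and 33 were under the minimum of 50 UMIs over both libraries.

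Of the 7 members with at least 50 UMIs, 5 were lower in mgR macrophages by at least 1.5-fold (H2-Aa, H2-Ab1, H2-Eb1, Cd74 and Ciita), beside 6.20% of the 9533 genes tested, and none was higher, beside 16.0%. The median log2 ratio was -0.90 over the 7 members and 0.12 over all genes. Relative to that shift of the typical gene the summed ratio was 0.483. On this scale H2-DMb1 passed 1.5-fold as well, but the share of all genes that did so is not given. The 6.20% above was counted without this scaling and is no background for it. The neutrophil markers summed to 15.1 CPM in WT and 95.3 in mgR macrophages, and the monocyte markers to 46.1 and 80.7. The monocyte markers were split. Ly6c2, Plac8 and Chil3 had no UMI in WT and were detected in mgR, whereas Ccr2 and Vcan were lower in mgR. The part of both marker sets in these ratios was not tested.

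**Figure D2:**
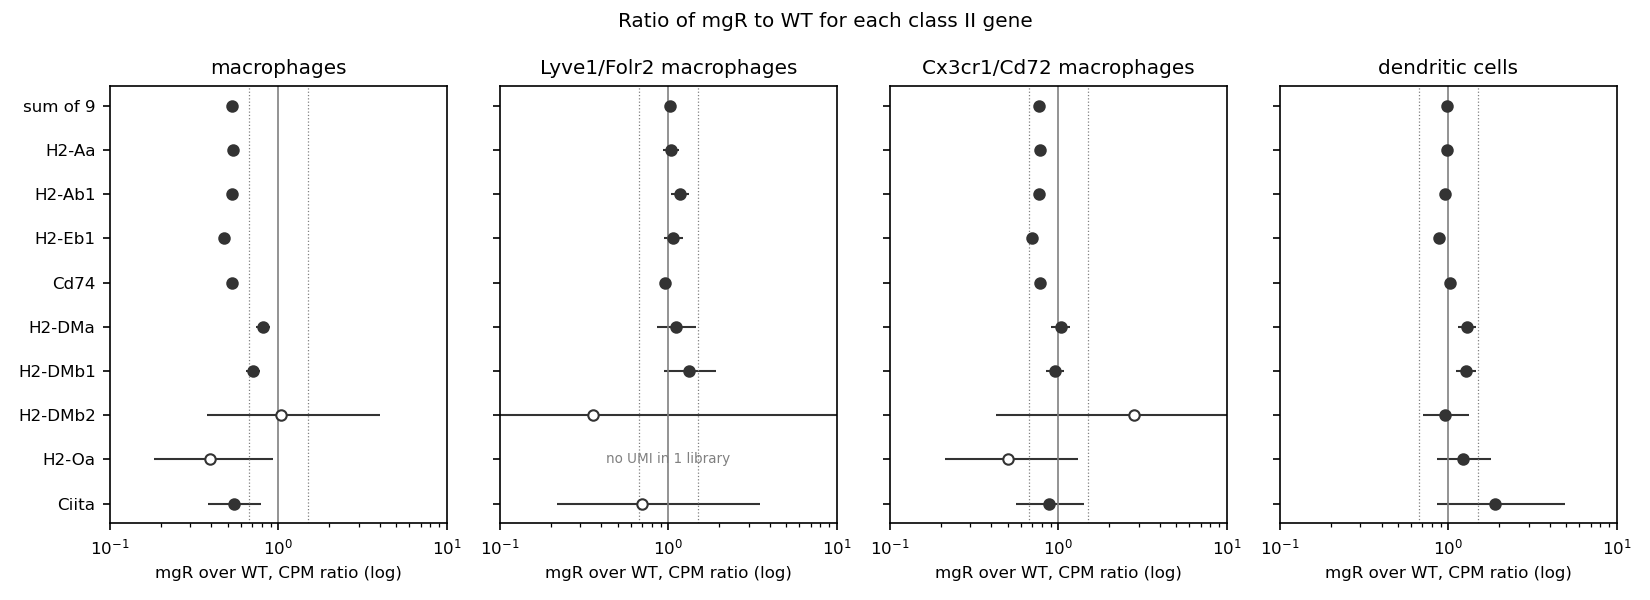
Ratio of mgR to WT (CPM ratio, log axis) of the 9 class II genes and their sum in all macrophages, the macrophage subsets and dendritic cells, with exact 95% intervals, dotted lines at 1.5-fold and open points for genes under 50 UMIs. In all macrophages the 3 chains, Cd74 and the sum sit near 0.5, in Lyve1/Folr2 macrophages and dendritic cells the sum sits near 1, and in Cx3cr1/Cd72 macrophages it is 0.764.

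The subsets took different parts in this difference. In Lyve1/Folr2 macrophages the summed level was 4053 CPM in WT and 4138 in mgR, a ratio of 1.02 (0.977 to 1.07). None of the 6 members tested there passed 1.5-fold in either direction, beside 9.26% of genes lower and 17.7% higher. H2-Ab1 was at 1.17 (1.04 to 1.32) and Cd74 at 0.954 (0.897 to 1.01). In Cx3cr1/Cd72 macrophages the sum was lower in mgR, at 0.764 (0.754 to 0.774). H2-Eb1 was at 0.693 (0.672 to 0.715), H2-Ab1 at 0.764, H2-Aa at 0.776 and Cd74 at 0.777, whereas H2-DMa at 1.03 (0.903 to 1.18), H2-DMb1 at 0.958 (0.849 to 1.08) and Ciita at 0.876 (0.558 to 1.43) had intervals that span 1. None of 7 passed 1.5-fold, beside 5.62% lower and 15.9% higher. In the undivided macrophages the sum was at 0.850 (0.833 to 0.867).

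The mix of subsets differed between the libraries. Lyve1/Folr2 macrophages were 34.2% (28.0 to 40.8) of WT and 60.9% (58.4 to 63.4) of mgR macrophages, and Cx3cr1/Cd72 macrophages 43.1% and 24.6%. With the gates set on cells thinned to 2000 UMIs the Lyve1/Folr2 share was 28.3% and 54.0% and the Cx3cr1/Cd72 share 19.8% and 9.42%, and 51.9% and 36.6% stayed undivided. With the levels of mgR and the subset mix of WT, macrophages would stand at 22562 CPM, or 0.800 of WT. With the levels of WT and the mix of mgR they would stand at 18000 CPM, or 0.638. For H2-DMa and H2-DMb1 the mgR levels at the WT mix gave 1.08 and 1.02 of WT, and for H2-Eb1 they gave 0.732.

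The share of macrophages with a UMI, in cells thinned to 2000 UMIs, was lower in mgR too. It was 63.9% (57.2 to 70.3) in WT and 44.3% (41.8 to 46.9) in mgR for H2-Aa and 75.3% and 60.6% for Cd74, beside 5.48% and 3.59% and 7.53% and 5.38% in fibroblasts, which are known to make little class II. For H2-DMa it was 44.3% and 31.5%, and for H2-DMb1 41.1% and 28.3%. For Ciita it was 5.48% (2.86 to 9.38) and 3.41% (2.55 to 4.44), with intervals that overlap. Without thinning the shares were 68.4% and 55.3% for H2-Aa but 63.6% and 65.1% for H2-DMa.

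The sum over the 9 genes was also followed cell by cell. With every cell thinned to 2000 UMIs, WT macrophages ranged from 0 to 230 class II UMIs with a median of 38, and mgR macrophages from 0 to 243 with a median of 3. The share with at least 10 was 58.9% (129 of 219, 52.1 to 65.5) in WT and 40.2% (614 of 1527, 37.7 to 42.7) in mgR. This cut divides a range and not cell types, and 26 and 167 cells lay near it. In Lyve1/Folr2 macrophages the median was 1 in both and the share 21.1% and 20.2%. In Cx3cr1/Cd72 macrophages the median was 93 in WT and 63 in mgR and the share 80.4% (71.1 to 87.8) and 68.5% (63.6 to 73.1). Every dendritic cell of mgR and 38 of 39 in WT passed 10, with medians of 127 and 125. The macrophage share thus differed by -18.7 percentage points (-25.5 to -11.6), by -16.1 without thinning, by -25.3 (-35.5 to -13.7) in Xist-only cells and by -14.9 (-26.3 to -3.04) in Y-only cells.

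**Figure D3:**
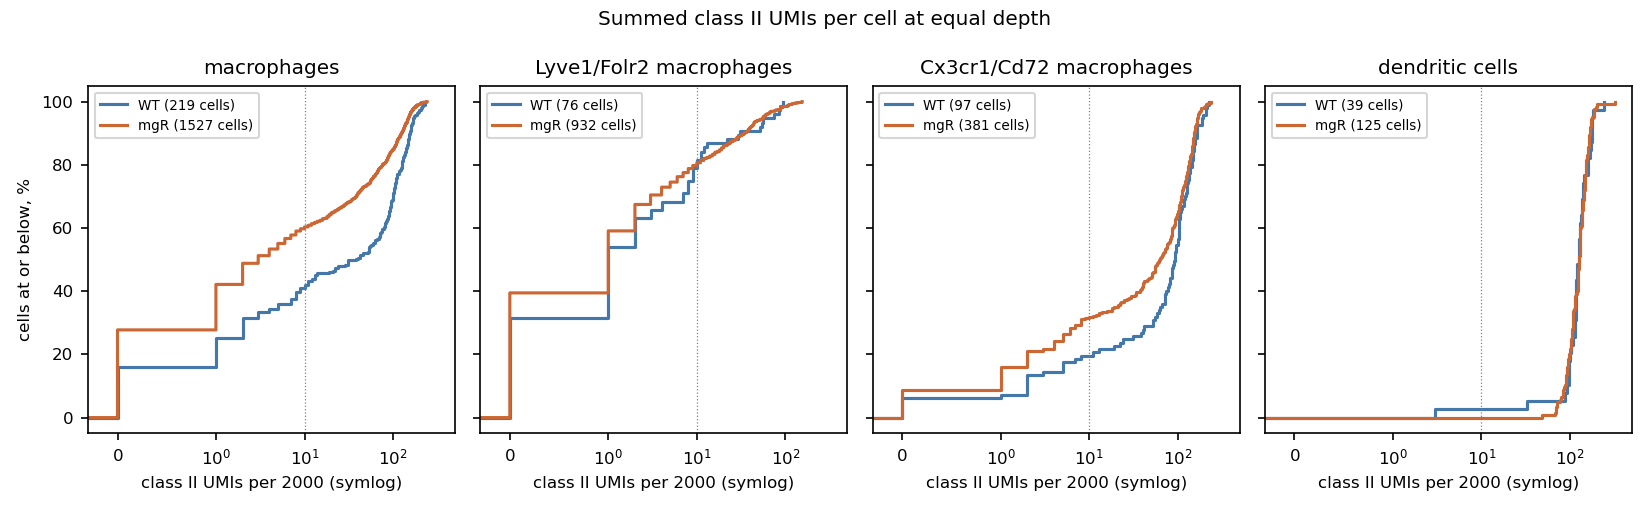
Percent of cells (vertical axis) with at most a given number of summed class II UMIs when each cell is thinned to 2000 UMIs (horizontal axis, linear up to 1 and logarithmic above it), for WT (blue) and mgR (orange), with a dotted line at 10. The curves lie apart for all macrophages (medians 38 and 3), lie close in Lyve1/Folr2 macrophages (medians 1 and 1) and in dendritic cells (125 and 127), and part in the lower portion of Cx3cr1/Cd72 macrophages (first quartiles 31 and 5).

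Within the sexes the difference over all macrophages kept its direction, but that within Lyve1/Folr2 macrophages did not, and these differences between the sexes were not tested. In Xist-only macrophages (77 WT and 1044 mgR cells) the summed ratio was 0.423 (0.416 to 0.430), and 6 of 7 members were lower by 1.5-fold, beside 9.86% of genes lower and 24.2% higher. In Y-only macrophages (87 and 295 cells) it was 0.605 (0.594 to 0.616), and 4 of 7 members were lower, beside 6.16% lower and 17.2% higher, with Ciita at 1.01 (0.530 to 2.07). In Lyve1/Folr2 macrophages the ratio was 0.688 (0.645 to 0.734) in Xist-only cells, from 25 WT cells, and 1.22 (1.12 to 1.32) in Y-only cells, from 34. There 2 of 6 members were lower by 1.5-fold in Xist-only cells (H2-Aa at 0.621 and Cd74 at 0.663), beside 15.6% of genes lower and 27.7% higher. In Y-only cells 2 of 6 were higher (H2-DMa at 2.08 and H2-DMb1 at 1.63), beside 19.1% higher and 8.88% lower. In Cx3cr1/Cd72 macrophages it was 0.642 (0.629 to 0.655) and 0.970 (0.948 to 0.993), on 36 and 34 WT cells. In Xist-only Cx3cr1/Cd72 macrophages 4 of 7 members were lower by 1.5-fold, beside 8.10%, and in Y-only cells none of 6 was lower or higher, beside 8.86% and 13.6%. The Lyve1/Folr2 share of macrophages was larger in mgR in both groups, 32.5% against 62.7% in Xist-only and 39.1% against 60.3% in Y-only cells.

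**Figure D4:**
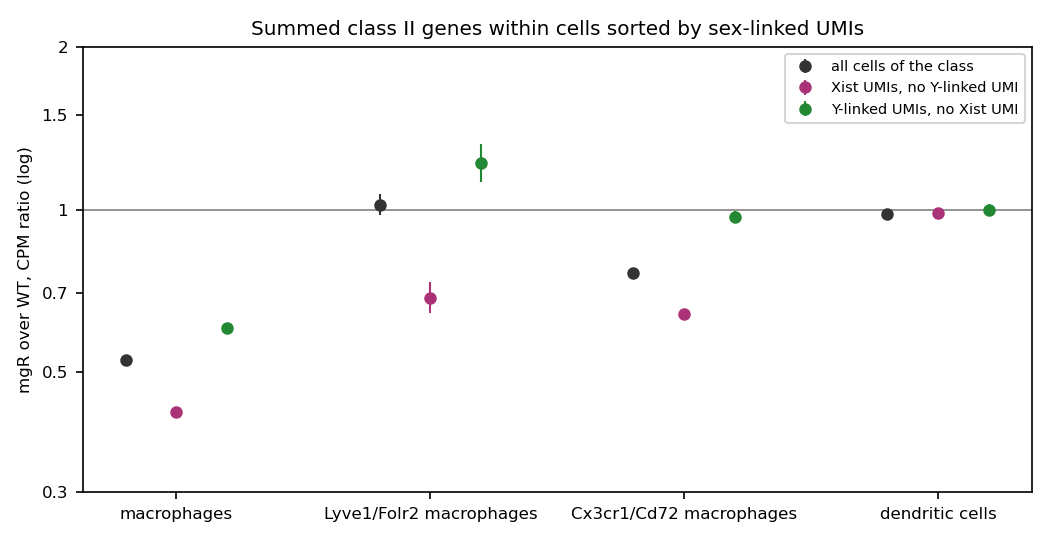
Ratio of mgR to WT (CPM ratio, log axis) of the 9 class II genes summed, in all cells of a class (dark), in cells with Xist UMIs only (purple) and in cells with Y-linked UMIs only (green), with exact 95% intervals. In all macrophages the 3 points lie below 1 (0.527, 0.423 and 0.605), in Lyve1/Folr2 macrophages the groups lie on either side of 1 (0.688 and 1.22), and in dendritic cells they lie at 0.986 and 1.001.

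In dendritic cells the summed ratio was 0.980 (0.966 to 0.995), and it was not lower within the types, at 1.03 (1.01 to 1.05) in type 2 and 1.002 (0.972 to 1.03) in type 1 cells. Type 1 cells, where the sum is smaller, were 8 of 39 in WT and 52 of 125 in mgR. H2-Aa was at 0.983 (0.947 to 1.02), H2-Ab1 at 0.953 (0.922 to 0.985), Cd74 at 1.02 (0.993 to 1.04, and 1.07 and 1.09 within type 2 and type 1 cells) and H2-Eb1 at 0.882 (0.853 to 0.913). The DM genes were higher in mgR, H2-DMa at 1.29 (1.14 to 1.46) and H2-DMb1 at 1.27 (1.11 to 1.45). In Xist-only dendritic cells, 17 in WT and 72 in mgR, H2-DMa was at 1.42 (1.18 to 1.70) and H2-DMb1 at 1.49 (1.22 to 1.84). In Y-only dendritic cells, 16 in WT and 32 in mgR, H2-DMa was at 1.23 (0.996 to 1.52) and H2-DMb1 at 0.956 (0.778 to 1.18). Over all dendritic cells H2-DMb2 was at 0.955 (0.701 to 1.32), with 1.36 (0.962 to 1.97) in type 2 and 0.462 (0.232 to 1.0004) in type 1 cells, and H2-Oa at 1.22 (0.852 to 1.80). Over both types together only Ciita of the 9 passed 1.5-fold, higher in mgR at 1.89 on 7 and 54 UMIs, and its interval of 0.856 to 4.92 spans 1. That 1 of 9 stands beside 12.9% of genes higher and 10.2% lower. Within type 2 cells none of 8 passed, beside 9.98% higher and 10.1% lower, and within type 1 cells H2-DMb2 alone of 8 did, lower, beside 19.3% higher and 14.9% lower. In Xist-only cells none of 8 passed, beside 13.3% higher and 12.1% lower, and in Y-only cells H2-Oa alone of 8 did, higher at 1.73 (0.961 to 3.35), beside 11.8% higher and 14.1% lower. Fibroblast markers summed to 22.4 CPM in the WT and 387.0 in the mgR dendritic cells, and their part was not tested.

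In B cells the sum was at 0.7003 (0.610 to 0.807), but 5 WT cells with 216 class II UMIs carry this value. Cd74 was at 0.575 (0.486 to 0.687) and the 3 chains at 0.864 to 0.937, with intervals that span 1. Of 6 members tested, Cd74 was lower by 1.5-fold and H2-DMb2, on 1 and 56 UMIs, higher, beside 21.6% and 32.3% of the 634 genes tested. In cells of no class the sum was 1824 CPM in WT and 2995 in mgR, at 1.64 (1.59 to 1.69), and 7 of 8 members tested were higher by 1.5-fold, beside 7.86% of genes higher and 10.0% lower. H2-Eb1 at 1.48 was the exception. The summed ratio was 1.01 as a mean over cells, 1.06 with a minimum of 3 UMIs for dendritic and B cells, and 3.15 in Y-only cells. This class is a mixture. The Ccr7+ cells were at 1.29 (1.22 to 1.36) and the monocyte-like cells at 57.0 (30.99 to 118.9), whereas the 121 and 447 cells that met none or several of the other gates were at 0.493 (0.474 to 0.514). In WT 3 of these cells held 65.9% of the 3103 class II UMIs, and at equal depth 8.45% and 6.30% had at least 10. In fibroblasts alone the ratio was 1.03 (0.921 to 1.16), and in Xist-only cells of no class it was 0.831.

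From cell to cell the presenting chains and Cd74 moved together. Over macrophages thinned to 2000 UMIs (219 in WT and 1527 in mgR) the Pearson correlations of log2(1 + UMIs) between H2-Aa, H2-Ab1, H2-Eb1 and Cd74 lay between 0.924 and 0.960 in WT and between 0.922 and 0.951 in mgR. H2-Aa correlated with H2-DMa at 0.534 and 0.542, with H2-DMb1 at 0.555 and 0.655, and with Ciita at 0.236 and 0.263. H2-DMb2 and H2-Oa, at few UMIs, stayed at 0.137 or below with H2-Aa, H2-Ab1, H2-Eb1 and Cd74. The cells of a library share its preparation, so these are descriptions. H2-Aa and H2-Eb1 were at 0.960 and 0.951. Of the letters searched, the window of H2-Aa held those of the Y box only, and that of H2-Eb1 held both. Absence of the X box letters does not show that H2-Aa lacks an X box. A link between the boxes and these correlations was not tested.

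The genes most like the class II sum over macrophages were ranked by the lower of the correlations in the libraries among 1046 genes. Cd52, a small surface glycoprotein of leukocytes, came first with 0.590 in WT and 0.509 in mgR, followed by Il1b, the cytokine interleukin 1 beta, with 0.543 and 0.452. Next came Bcl2a1b with 0.569 and 0.415, and the related survival genes Bcl2a1d and Bcl2a1a stood sixth and seventh. The ribosomal genes Fau, Rps24 and Rpl32, Basp1, and Ctss, which encodes the protease that trims the invariant chain, completed the first 10, with Ctss at 0.387 and 0.280. Il1b was 2625 CPM in Cx3cr1/Cd72 and 183.1 in Lyve1/Folr2 macrophages of WT, and 1512 and 175.7 in mgR.

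Other genes of the class II pathway lay near the typical gene in macrophages. Of 12 listed, 10 had at least 50 UMIs in macrophages and none passed 1.5-fold in either direction, beside 6.20% lower and 16.0% higher over all genes, a count too small to tell apart from that background. The median log2 ratio was 0.07 beside 0.12 over all genes, and 3 of the 10 had intervals below 1 and 2 above. The share of all genes with such intervals is not given, so that count has no background. Marchf1, a ligase that removes class II from the surface, had the highest ratio at 1.40 (0.936 to 2.17), and H2-Ob, the other chain of DO, the lowest at 0.803 (0.426 to 1.67). Ctss was at 0.925 (0.889 to 0.962). In dendritic cells none of 7 passed, beside 12.9% of genes higher and 10.2% lower, with a median of -0.17 beside -0.0047 over all genes. There Sppl2a, a protease that clears the last remnant of the invariant chain, was highest at 1.35 (0.968 to 1.94) and Lgmn, an endosomal protease, lowest at 0.734 (0.436 to 1.29).

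The median gene of class I presentation, which serves CD8+ T cells in all cells, also lay near the typical gene in macrophages. In macrophages 1 of 15 passed, higher in mgR, beside 16.0% higher and 6.20% lower over all genes. The median was 0.05 beside 0.12 over all genes. The gene that passed was Tap1, a subunit of the peptide transporter, at 2.07 (1.43 to 3.12), and the lowest was H2-T23 at 0.759 (0.677 to 0.853). In dendritic cells 1 of 13 passed, beside 12.9% of genes higher and 10.2% lower, Psmb10 of the immunoproteasome at 1.56 (0.981 to 2.61). The lowest was Tapbp, which bridges the transporter and class I, at 0.843 (0.601 to 1.20). The median there was 0.21 beside -0.0047 over all genes.

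Of 18 genes of interferon-gamma signaling and class II control, 1 was higher and 3 were lower by 1.5-fold in mgR macrophages, beside 16.0% and 6.20% of all genes, with a median of -0.0016. Nfyb, a subunit of the Y box factor NF-Y, was highest at 2.33 (1.24 to 4.93) on 10 and 219 UMIs. Prdm1, a repressor that can silence Ciita, was lowest at 0.556 (0.462 to 0.672), and Jak2 at 0.592 and Bcl6 at 0.641 were the others. The RFX genes Rfx5 (0.905), Rfxank (1.34) and Rfxap (0.996) had intervals that span 1, as did Nfya at 0.938 and Nfyc at 0.835. Within Lyve1/Folr2 macrophages 1 of 17 was higher and none was lower, beside 17.7% and 9.26% of genes, with a median of 0.08. Within Cx3cr1/Cd72 macrophages 2 of 15 were higher and 3 were lower, beside 15.9% and 5.62%, with a median of 0.06. The genes that passed within the subsets are not named here. In dendritic cells 3 of 11 were higher and 1 was lower, beside 12.9% and 10.2%. Irf8, a factor of type 1 dendritic cells, was at 2.06 (1.62 to 2.65) and Jak2 was lowest at 0.533 (0.419 to 0.681). Type 1 cells made up 8 of 39 dendritic cells in WT and 52 of 125 in mgR.

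The costimulatory list had 7 genes tested in macrophages, of which 1 was higher and 2 were lower, beside 16.0% and 6.20% of all genes, with a median of -0.29. Cd274, the ligand PD-L1, was highest at 1.996 (0.987 to 4.71) on 8 and 150 UMIs. Cd72 was lowest at 0.595 (0.526 to 0.674), but it is part of the subset gate, and Cd40, the receptor for T cell help, was at 0.615 (0.492 to 0.777). Within Lyve1/Folr2 macrophages 1 of 7 was higher and none was lower, beside 17.7% and 9.26% of genes, with a median of 0.07. Within Cx3cr1/Cd72 macrophages none of 6 was higher and 1 was lower, beside 15.9% and 5.62%, with a median of -0.19. The genes that passed within the subsets are not named here. In dendritic cells none of 6 was higher and 2 were lower, beside 12.9% and 10.2%, with a median of -0.57 beside -0.0047 over all genes. Cd40 was highest at 1.11 (0.534 to 2.61) and Icosl, the ligand of ICOS, lowest at 0.517 (0.288 to 0.962).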

How the data were processed

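The authors deposited raw UMI counts per gene and barcode, made with Cell Ranger 7.1.0 on build mm10 per the submitters' processing notes. Whether intronic reads were counted and the annotation are not given in the sources used here. A legend of the study gives an n for these data but not how many mice entered each library. Depth was 5381844 UMIs in 1104 barcodes for WT and 28215539 in 3802 for mgR. Cells with 200 to 5000 genes and at most 10% mitochondrial UMIs were kept. Cells meeting gates of 2 or more classes (4 in WT, 33 in mgR) were set apart. Scrublet (scanpy 1.11.5) marked 0.800% and 1.48% of cells, which stayed in and were left out in an alternative. UMIs were summed per class, and ratios carry exact conditional binomial intervals (scipy 1.17.1). Genes were called past 1.5-fold with at least 50 UMIs over both libraries. The scripts were tested on simulated data.

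The members and gene lists were chosen with earlier results of these data known. Named were the 9 members, the genes of each list with the highest and the lowest ratio in macrophages and in dendritic cells, each with at least 50 UMIs, and the 10 genes most like the members among those with at least 200 UMIs in each library. Other genes were named after their values were seen. The values of some listed genes are not reported here.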

Additional observations from a re-analysis of the deposited data

Results flagged for a closer look

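These differences of direction were not tested, since each genotype had 1 library. In Lyve1/Folr2 macrophages the ratio of mgR to WT lay below 1 in Xist-only cells and above 1 in Y-only cells, with intervals clear of 1. It was 0.688 and 1.22 for the summed members, 0.621 and 1.36 for H2-Aa, 0.798 and 1.39 for H2-Ab1, and 0.721 and 1.41 for H2-Eb1. The WT side rests on 25 Xist-only and 34 Y-only cells. At equal depth WT Lyve1/Folr2 macrophages had a median of 1 class II UMI and a highest cell of 95. Only 10 of 76 such cells had at least 20. The intervals count each UMI as independent and do not cover this spread between cells. In Cx3cr1/Cd72 macrophages H2-Aa was at 0.605 in Xist-only and 1.11 in Y-only cells. The summed members were lower in mgR in macrophages (0.527) and higher in the cells of no class (1.64), where Xist-only cells gave 0.831 and the mean over cells 1.01.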

How the results depend on the processing

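With 1 library per genotype, intervals cover counting only, and B cells and monocyte-like cells of WT limit their comparisons. No paired analysis was possible because each genotype had 1 library. The ratio in all macrophages stayed below 1 in each alternative run, and the difference in the share of macrophages with at least 10 class II UMIs stayed below 0 and ran from -25.3 to -14.9 percentage points. The cause of each shift was not tested. With the median of gene ratios as scale, the mgR to WT ratio of the sum was 0.483 in macrophages, 0.702 in Cx3cr1/Cd72 macrophages and 1.70 in other cells. As a mean over cells it was 0.581 in macrophages, 0.809 in Cx3cr1/Cd72 macrophages, 0.999 in dendritic cells, 0.825 in B cells and 1.01 in other cells. With cells thinned to 2000 UMIs it was 0.567, 0.795, 1.01 and 1.59 in macrophages, Cx3cr1/Cd72 macrophages, dendritic cells and other cells, and 0.955 in Lyve1/Folr2 macrophages. With gates on thinned cells, chosen after seeing the data, it was 0.562, 0.683, 1.08 and 1.23 in these, and 0.969 in Lyve1/Folr2 macrophages. A mitochondrial limit of 5% gave 0.516 in macrophages, and no cell filter gave 1.88 in other cells. A minimum of 3 for dendritic and B cells gave 1.01 in dendritic and 1.06 in other cells. Cells of several gates in every class gave 0.948 in dendritic and 0.869 in B cells. Xist-only cells gave 0.423 in macrophages, 0.688 in Lyve1/Folr2 and 0.642 in Cx3cr1/Cd72 macrophages, and turned the direction in other cells (0.831). Y-only cells gave 0.605, 1.22 and 0.970 in these macrophages, 1.001 in dendritic cells, 1.16 in B cells and 3.15 in other cells, and turned the direction of Ciita in macrophages (1.01) and of Cd74 in B cells (1.32, 0.711 to 2.76). The Y-only B cell values rest on 1 WT cell. The ratio of Cx3cr1/Cd72 to Lyve1/Folr2 macrophages was 8.95 in WT and 7.25 in mgR as a mean over cells, 8.72 and 7.27 when thinned, 6.87 and 6.41 in Xist-only and 15.9 and 12.7 in Y-only cells, and in mgR 7.27 with gates on thinned cells and 7.28 with cells of several gates. Genes past 1.5-fold numbered 2119 in macrophages, 2253 in Lyve1/Folr2 and 1397 in Cx3cr1/Cd72 macrophages, 867 in dendritic cells, 342 in B cells and 2023 in other cells. With 200 or more UMIs they numbered 964, 812, 377, 160, 65 and 846, and with 1 or more 8367, 8903, 7535, 7300, 8916 and 8181. Single members kept their direction in 99 of 108 values in macrophages, 86 of 106 in dendritic cells and 59 of 69 in B cells.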

Other observations

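Among the genes that ran most against class II over macrophages, chosen after the likeness ranking was seen, F13a1, which encodes a chain of coagulation factor XIII, had correlations with the class II sum of -0.63 in WT and -0.55 in mgR. The others of the first 10 were Lyve1 (-0.56 and -0.51) and Folr2 (-0.52 and -0.47), which are part of the subset gate, and Pf4 (-0.59 and -0.49), Wfdc17 (-0.49 and -0.47), Cbr2, the mannose receptor gene Mrc1 (-0.57 and -0.46), Timp2, Selenop and Ctsd. F13a1 stood at 1716 CPM in Lyve1/Folr2 and 139.3 in Cx3cr1/Cd72 macrophages of WT, and at 2072 and 148.4 in mgR.

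The macrophages that neither pair of subset genes placed had medians of 99.5 class II UMIs of 2000 in WT and 75.5 in mgR, beside 93 and 63 in Cx3cr1/Cd72 macrophages. They were also shallower, with medians of 5072 and 6432 UMIs per cell beside 6698 and 8433.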
